A study of Ictalurus furcatus with 16 samples.

Results

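Several genes best known from oocytes were counted in testes of blue catfish, Ictalurus furcatus, a large river fish of North America. The set holds btg4, slbp2, zar1, 42sp43, figla, gdf9, bmp15 and nobox, 8 symbols in all, chosen with the counts of these libraries by age and their covariation in view. Of these, 7 were among the 26356 gene symbols of the count tables and all 7 passed the filter on low counts. The symbol nobox, which names an oocyte homeobox factor, was not among the symbols used here, so no value is given for it. Total RNA had been taken from whole testis of 16 males, 4 at each of ages 2, 4, 7 and 9 (no unit is stated for the ages), with the youngest age as the study's control and no treatment named, and the 4 of an age were biological replicates. All levels of the 7 genes and their changes with age are a description and carry no test, because the set was chosen on these values.

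Growing oocytes store RNA and protein that the embryo uses before its own genes are switched on, and a set of largely oocyte-restricted genes serves that store. Some of them handle maternal RNA (btg4, slbp2, zar1, 42sp43), one is a transcription factor that runs the oocyte programme (figla), and others are growth factors that the oocyte sends to its surrounding follicle cells (gdf9, bmp15). Their transcripts can also be met in the male germ line: mouse Btg4, for example, is transcribed in testis.

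Each library held between 5136717 and 8081160 counts assigned to transcripts, and the 7 genes held between 411 (figla) and 2424 (42sp43) counts over the 16 libraries. Levels are CPM, counts scaled to a common library size, and they were not compared between genes because transcript lengths were not used here. The youngest age was not uniform. Transcripts of the spermatid and sperm tail list (22 genes tested) summed to 4297 CPM in replicate 1 of age 2, against 632.5 to 857.8 CPM in the other 3 replicates of that age and 1429 to 7237 CPM in the 12 libraries of ages 4, 7 and 9. Counts of genes passing the test against age 2 are therefore given with and without that replicate, and so are the fold changes of members whose sign or call turned on it. In whole testis, fewer cells of a type and less RNA per cell cannot be told apart.

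Btg4 is an adaptor of the CCR4-NOT deadenylase and clears maternal mRNA in mouse eggs. Its level was 8.34, 0.278, 0.291 and 0.167 CPM in the 4 libraries of age 2, the last 3 of which rest on 2, 2 and 1 counts. At age 4 it was 6.76, 28.7, 0.678 and 0 CPM. Age 4 therefore held both the highest library of all, with 225 counts, and one with no count, for which 3 counts would equal 0.418 CPM. At age 7 the levels were 2.17, 0, 10.3 and 1.90 CPM, where 3 counts in the library at 0 would equal 0.524 CPM. At age 9 they were 0.342, 0.183, 1.84 and 0.327 CPM. Ages 2, 4 and 7 each held a testis with a clear signal beside others at or near 0. The highest library of age 9 rested on 12 counts, and all ages overlapped.

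Slbp2, which in Xenopus binds the histone mRNAs stored in oocytes, followed btg4. It measured 8.82, 0.556, 1.46 and 0.334 CPM at age 2, and 8.49, 18.4, 0.508 and 0.139 CPM at age 4. At ages 7 and 9 it measured 3.67, 0.349, 15.9 and 2.07 CPM and then 2.05, 0.367, 4.75 and 0 CPM, where 3 counts in the last library would equal 0.490 CPM. The 4 highest libraries were the same as for btg4 and in the same order: age 4 replicate 2, age 7 replicate 3, age 2 replicate 1 and age 4 replicate 1.

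Zar1, an RNA-binding protein needed for the oocyte-to-embryo transition in mouse and for oogenesis in zebrafish, was low in none of the age 2 testes. It stood at 10.3, 7.51, 4.95 and 6.02 CPM there. At age 4 it stood at 8.18, 22.4, 0.678 and 1.11 CPM. At age 7 it stood at 2.502, 0.175, 5.24 and 2.76 CPM and at age 9 at 0.855, 1.28, 3.53 and 0.653 CPM, so every age 9 library lay below every age 2 library. The 3 age 2 testes with 1 or 2 counts of btg4 thus held zar1 at levels that only age 4 replicates 1 and 2 and age 7 replicate 3 reached or passed among the older testes.

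The protein of 42sp43 is known from Xenopus oocytes, where it belongs to a storage particle for 5S RNA. Its level was 72.1, 5.28, 10.3 and 9.20 CPM at age 2 and 36.2, 111.9, 8.98 and 8.78 CPM at age 4. It was 19.5, 11.2, 7.86 and 21.4 CPM at age 7 and 12.1, 8.80, 15.02 and 2.29 CPM at age 9. Age 4 replicate 2, age 2 replicate 1 and age 4 replicate 1 again led, but age 7 replicate 3, the library next to the top for btg4 and slbp2, was the third lowest here.

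Figla, a bHLH factor that activates the zona pellucida genes and is needed for follicle formation in mouse, was nearly even at age 2, with 6.09, 5.004, 5.97 and 5.68 CPM. It measured 3.77, 5.99, 3.56 and 3.48 CPM at age 4, 3.67, 3.14, 0.925 and 5.87 CPM at age 7, and 2.39, 2.02, 3.68 and 2.61 CPM at age 9. The age 9 libraries all lay below the age 2 libraries, and the lowest value of all, from 6 counts, was in age 7 replicate 3.

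The growth factor genes of the TGF-beta family had their highest means at age 2. Gdf9 stood at 6.41, 9.73, 12.4 and 8.69 CPM at age 2, and at 3.62, 15.6, 2.03 and 3.90 CPM at age 4. At ages 7 and 9 it stood at 4.67, 2.45, 4.93 and 2.07 CPM and at 3.42, 2.02, 3.22 and 2.61 CPM. Apart from age 4 replicate 2, every older library lay below all 4 libraries of age 2. Bmp15 stood at 3.85, 7.51, 9.18 and 7.86 CPM at age 2, at 3.14, 8.67, 2.37 and 2.37 CPM at age 4, at 2.84, 2.10, 7.09 and 4.15 CPM at age 7 and at 4.96, 3.67, 4.91 and 3.43 CPM at age 9. For bmp15 the low one among the age 2 libraries was replicate 1, the library in which btg4, slbp2 and 42sp43 were high, and all ages overlapped.

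**Figure D1:**
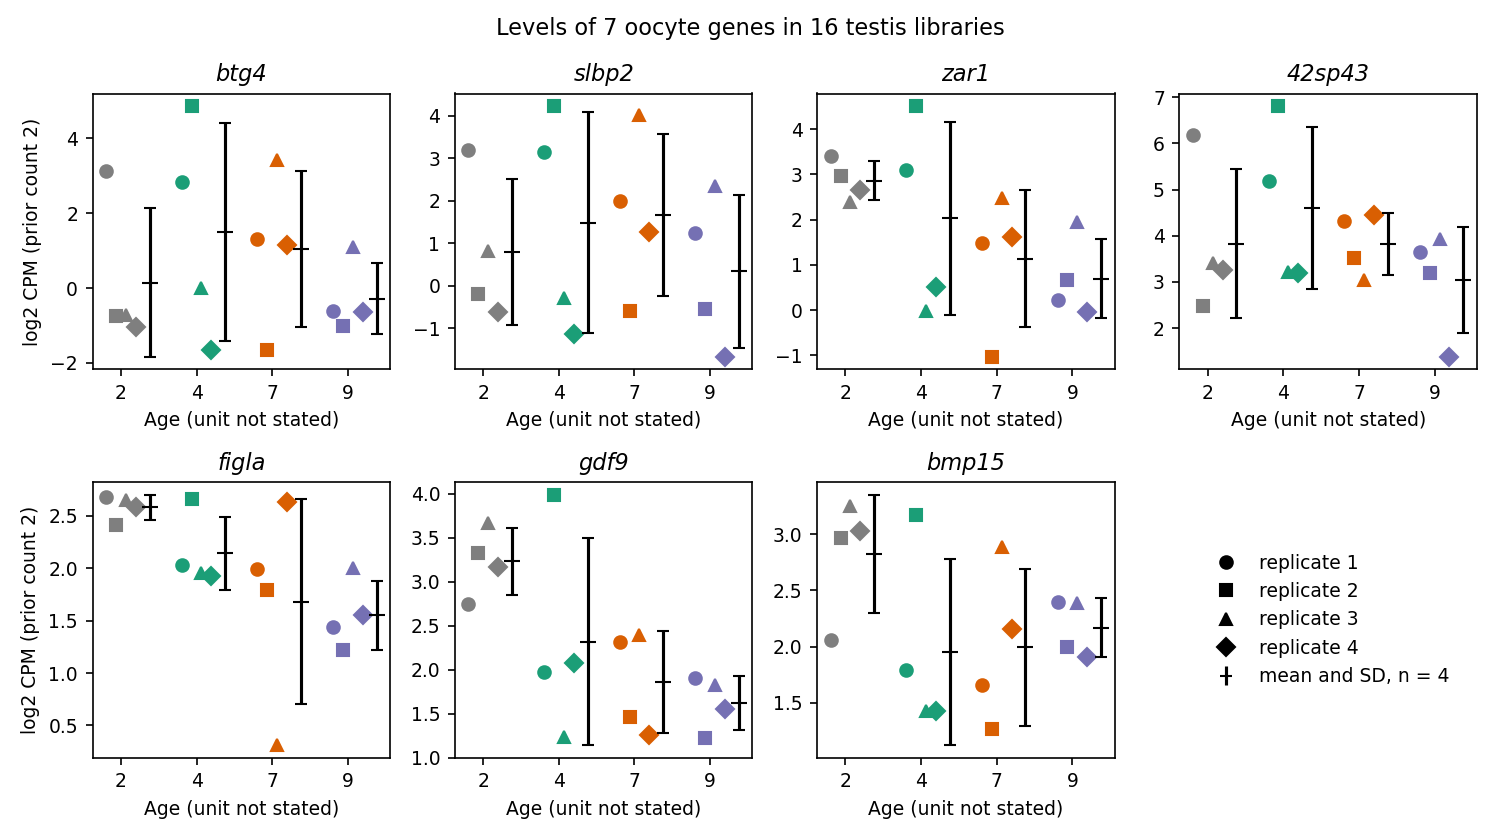
Log2 CPM (prior count 2, y axis) of the 7 genes in 16 libraries by age (x axis, no unit stated), 1 point per library with the marker giving the replicate and the bar giving mean and SD (n = 4). The square of age 4 is the highest point for btg4, slbp2, zar1, 42sp43 and gdf9, and for figla and gdf9 no age 9 library reaches the range of age 2.

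Across all 16 libraries, age 4 replicate 2 was among the 4 highest for all 7 genes, age 2 replicate 1 for 5 of them and age 4 replicate 1 for 4 of them. These 2 leading libraries also had the most assigned counts (7041743 and 8081160), and the part of depth was not tested. Over the 12 older libraries, the SD of log2 CPM was 2.09 for btg4, 2.02 for slbp2, 1.55 for zar1 and 1.32 for 42sp43, which placed these RNA-handling genes between the 97.7th and the 99.7th percentile of all genes tested. It was 0.77 for gdf9 (82.2nd percentile), 0.63 for figla (69.4th percentile) and 0.59 for bmp15 (64.7th percentile). The set was chosen on the covariation between these libraries, so the percentiles are a description. They were not matched for level, and the low values of btg4, slbp2 and zar1 rest on few counts.

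Between ages, the fit over all genes (edgeR's quasi-likelihood test, Benjamini-Hochberg adjusted p under 0.05) passed 0 of the 7 at age 4 against age 2, 0 at age 7 and 1, gdf9, at age 9. The share of all genes passing it was 18.6% at age 4, 27.3% at age 7 and 18.4% at age 9. All of these comparisons share the age 2 libraries, and the members' part in them is a description. Gdf9 averaged 2.82 ± 0.635 CPM at age 9 and 9.31 ± 2.48 CPM at age 2 (SD, n = 4 each), a log2 fold change of -1.72 ± 0.53 (SE). That call was lost without age 2 replicate 2, 3 or 4 and without any 1 of the age 9 libraries, while the change then lay between -1.79 and -1.55. Libraries of the older age and of age 2 did not overlap for 0 genes at age 4, for gdf9 at age 7, and for zar1, figla and gdf9 at age 9, all lower at the older age. Among all genes tested, 9.41% at age 4, 15.1% at age 7 and 15.1% at age 9 did not overlap.

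The remaining members did not pass the test at any age with all libraries in the fit. At age 9, zar1 averaged 1.58 ± 1.32 CPM and at age 2 7.18 ± 2.30 CPM (SD, n = 4 each), a log2 fold change of -2.16 ± 0.93 (SE). For figla the means were 2.67 ± 0.713 CPM at age 9 and 5.69 ± 0.487 CPM at age 2 (SD, n = 4 each), a log2 fold change of -1.08 ± 0.42 (SE). Bmp15 averaged 4.14 ± 3.05, 4.04 ± 2.20 and 4.24 ± 0.806 CPM at ages 4, 7 and 9 and 7.10 ± 2.28 CPM at age 2 (SD, n = 4 each). Its log2 fold changes, -0.77 ± 0.46, -0.81 ± 0.47 and -0.74 ± 0.46 (SE), were close at the 3 older ages. Genes of other testis cells also differed between these ages, and their part in the values of the members was not tested. The Sertoli cell list (12 genes tested) summed to 710.4 to 2271 CPM in the 12 older libraries, against 609.1 CPM in age 2 replicate 1 and 3187 to 8389 CPM in the other 3 libraries of age 2. Gsdf, a growth factor gene of fish Sertoli cells, made up most of those 3 high sums. In age 2 replicates 2, 3 and 4 it held 2479, 1934 and 6708 CPM of 3409, 3187 and 8389 CPM. Its mean was 356.3 CPM at age 9 against 2806 CPM at age 2 (log2 fold change -2.98 ± 0.75, SE, edgeR adjusted p = 0.0159). Age 2 replicate 1 held 101.5 CPM of gsdf, below the age 9 mean. In edgeR's test 0 of the 12 Sertoli genes were higher and 2, 3 and 1 lower at ages 4, 7 and 9. Of all genes, 18.6%, 27.3% and 18.4% passed. The fit without age 2 replicate 1 gave 0 higher and 5, 4 and 3 lower, where 45.7%, 47.8% and 42.3% of all genes passed. Of 13 spermatogonial genes, 0, 1 and 2 were higher and 5, 5 and 5 lower, to be read beside the same shares. The fit without age 2 replicate 1 gave 2, 3 and 2 higher and 6, 6 and 6 lower. With all libraries, gfra1b was higher at ages 7 (log2 fold change 2.09 ± 0.56, SE) and 9 (2.22 ± 0.56), and piwil1 at age 9 (0.86 ± 0.25). Among the lower genes, nanos2 was at 1.69 CPM at age 9 against 36.9 CPM at age 2 (-4.43 ± 0.95, edgeR adjusted p = 0.00853). Tdrd1 was at 91.1 CPM against 456.8 CPM (-2.33 ± 0.43, edgeR adjusted p = 0.00473). In age 2 replicate 1, nanos2 was at 1.92 CPM and tdrd1 at 120.4 CPM, far below those age 2 means. That list summed to 427.9 to 835.8 CPM in the older libraries, against 545.6 CPM in age 2 replicate 1 and 1076 to 1472 CPM in the other 3.

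The means of btg4, slbp2 and 42sp43 were of the size of their SDs or below them at ages 2 and 4.

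For btg4, slbp2 and 42sp43 the value at age 2 was set by replicate 1. At age 4 against age 2 the log2 fold change of btg4 was 2.01 ± 1.41 (SE) with all libraries and 5.16 ± 1.74 without age 2 replicate 1, and that of 42sp43 was 0.78 ± 0.86 and 2.40 ± 0.82. Both genes then passed the threshold as higher at age 4, 2 of 7 members, and 45.7% of all genes passed it in that fit. At age 9 against age 2 the sign turned on the same library: btg4 changed by -1.67 with it and 1.46 without it, slbp2 by -0.61 with it and 1.24 without it, and 42sp43 by -1.34 with it and 0.26 without it. At age 7 against age 2 the same held for 42sp43, at -0.69 with it and 0.94 without it. Without that replicate, gdf9 was the 1 member passing at age 7 (log2 fold change -1.45 ± 0.54, SE, against 47.8% of all genes) and at age 9 (-1.80 ± 0.54, SE, against 42.3%). Single older libraries also turned signs. At age 4 against age 2, the log2 fold change of zar1 was 0.18 with age 4 replicate 2 and -1.08 without it, and that of 42sp43 was 0.78 with it and -0.41 without it. At age 7 against age 2, that of btg4 was 0.69 with age 7 replicate 3 and -0.69 without it, and that of slbp2 was 0.99 with it and -0.42 without it. Gdf9 passed the threshold at age 4 (-1.51) and at age 7 (-1.35) without age 4 replicate 2, and at age 7 without age 4 replicate 3 (-1.35), while figla passed it at age 9 without age 7 replicate 3 (-1.05). The shares of all genes passing in these fits are not given here. With 1 library left out, between 1 and 7581 genes passed at age 4 against age 2, so nothing is read from these calls.

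**Figure D2:**
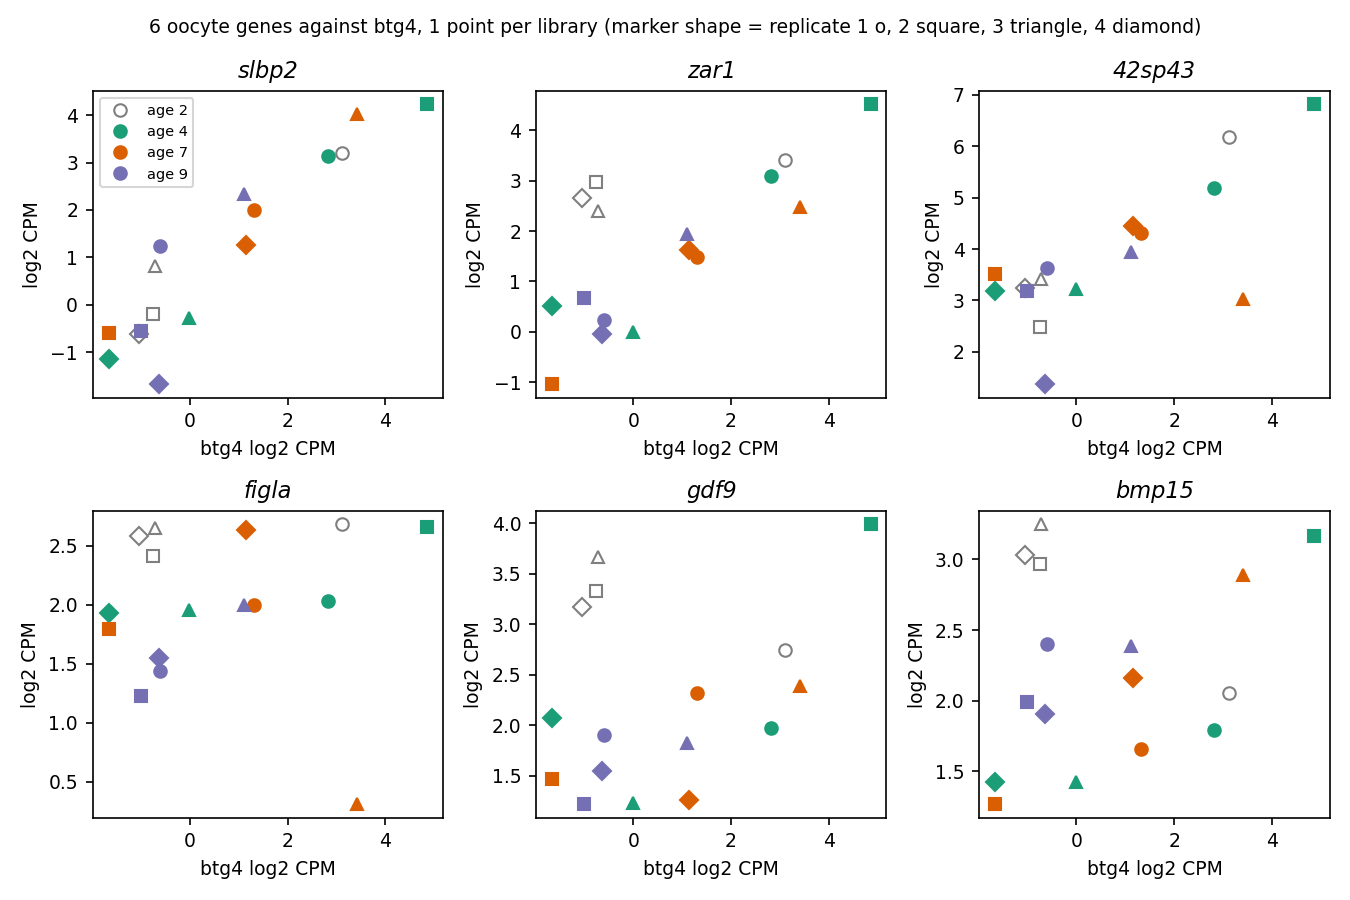
Log2 CPM of 6 oocyte genes (y axis) against that of btg4 (x axis), 1 point per library, colour by age and marker by replicate, with age 2 as open symbols. Slbp2 and zar1 rise with btg4 over the 12 older libraries (r 0.92 and 0.94). Age 2 replicates 2 to 4 lie above the older libraries of equal btg4 for zar1, figla, gdf9 and bmp15.

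The covariation was described over the 12 libraries of ages 4, 7 and 9 as Pearson's r of log2 CPM, a measure that the choice of the set used. Libraries of 3 ages enter each r, and the low values rest on few counts. Over the 21 pairs the median r was 0.69 (Spearman's rho 0.58), with a range from -0.12 to 0.94, and 15 pairs reached 0.6. The pairs of btg4, slbp2, zar1 and 42sp43 had a median of 0.82 and lay between 0.69 and 0.94. Btg4 went with zar1 at an r of 0.94 (rho 0.84) and with slbp2 at 0.92 (rho 0.93), and slbp2 with zar1 at 0.88 (rho 0.90).

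Figla had the lowest r with the rest over these 12 libraries, and for some of its pairs the value turned on single libraries. Its 6 pairs had a median r of 0.17 and the highest, with 42sp43, was 0.61 (rho 0.83). Without age 7 replicate 3 and age 4 replicate 2, the libraries farthest from its median, its r was 0.54 with btg4 (0.14 with all 12, rho 0.47), 0.42 with slbp2 (0.03, rho 0.43) and 0.45 with zar1 (0.25, rho 0.49). With the others it stayed near its value over all 12 or fell: 0.55 with 42sp43 (0.61), 0.05 with gdf9 (0.19) and -0.07 with bmp15 (-0.12). Without age 4 replicate 2 alone all 6 pairs were lower, between -0.53 (bmp15) and 0.47 (42sp43), with btg4 at -0.18. In age 7 replicate 3, figla was at its lowest and 42sp43 low, while btg4 and slbp2 were high. Gdf9 and bmp15, which can act as a dimer in mammals, had an r of 0.65, and each had an r of 0.73 with btg4. Age 4 replicate 2 carried much of the set's covariation: without it the median over the 21 pairs was 0.49. Btg4 with slbp2 and with zar1 then stayed at 0.91 and 0.90, whereas btg4 with 42sp43 was at 0.46, gdf9 with bmp15 at 0.32 and gdf9 with 42sp43 at 0.18.

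**Figure D3:**
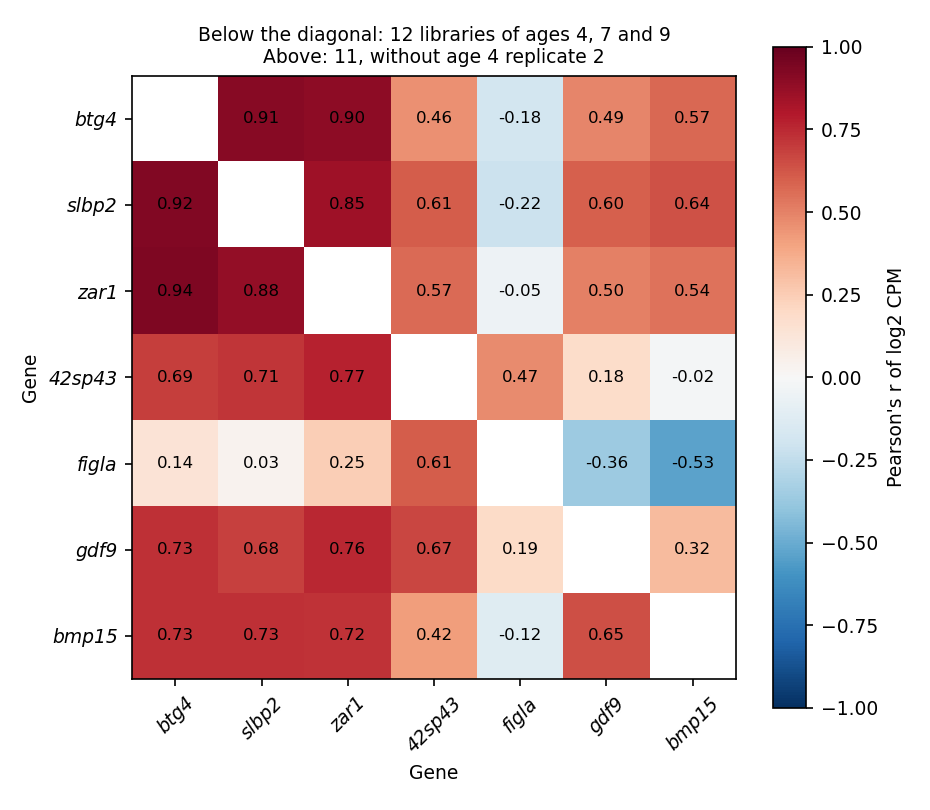
Pearson's r of log2 CPM between the 7 genes, with the 12 libraries of ages 4, 7 and 9 below the diagonal and 11 of them, without age 4 replicate 2, above it. The block of btg4, slbp2 and zar1 keeps r of 0.85 to 0.91 above the diagonal. The figla cells are pale or blue, except those with 42sp43 (0.61 below the diagonal and 0.47 above it).

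Genes outside the set were then ordered by their likeness to each member, over the same 12 libraries and among 10868 genes with a name and a mean of at least 1 CPM. The 5 genes most like btg4 were kpna7 (r 0.97), acp5a (0.95), ankrd34ba (0.95), cdca9 (0.95) and pou5f3 (0.95). Kpna7 is an importin alpha of mammalian oocytes and early embryos, and pou5f3 is a maternally supplied transcription factor in zebrafish. Kpna7 ranged from 1.05 CPM to 28.8 CPM in the 12 libraries, with a median of 3.61 CPM. The genes most like slbp2 were zp3f.2 (0.97), mcm3l (0.95), lrp13 (0.95), zpd (0.94) and buc (0.93), of which zp3f.2 and zpd bear the names of egg envelope proteins. Buc organises the Balbiani body of zebrafish oocytes, and with lrp13 it was also among the 5 most like zar1, beside zgc:56231 (0.97), nanog (0.95) and eomesa (0.95). Zpd ranged from 1.83 CPM to 139.9 CPM with a median of 13.6 CPM. The highest of the 12 libraries was age 4 replicate 2 for every gene named here.

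The gene most like 42sp43 was eef1a1l3 (r 0.93, rho 0.73), by its name an elongation factor 1-alpha gene, and gdpd1 (0.93), arxb (0.91) and zgc:163014 (0.87) were also among the genes most like it. In Xenopus oocytes, the storage particle that holds the 42sp43 protein also holds a relative of elongation factor 1-alpha. Eef1a1l3 ranged from 7.67 CPM to 84.3 CPM with a median of 13.1 CPM. The genes most like figla were mrs2 (0.89), oscp1a, ssx2ipa, rbm48 and ppfia3, and those most like gdf9 were rgs14a (0.91), cobll1a, ano2b, rtraf and qsox2. Without the 2 libraries farthest from the member's median, r lay between 0.58 (oscp1a) and 0.85 (mrs2) for the figla genes. For the gdf9 genes it lay between 0.62 (rgs14a) and 0.76 (rtraf), and each was highest in age 4 replicate 2. Rgs14a ranged only from 2.57 CPM to 4.34 CPM. None of these 10 was on the oocyte or egg envelope lists. For bmp15 they were zbtb37 (0.93), niban2a, acvr1ba (0.87), rnf11b and prickle2b, of which acvr1ba is named for a type I activin receptor.

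Lists of genes that act beside the members, or that mark cells a testis sample can hold, were set against btg4 in the same way. Of 19 other oocyte and egg genes tested, 13 had an r of at least 0.7 with btg4 (68.4%), as did 5 of 5 egg envelope genes, against 1.37% of all genes tested. The limit of 0.7 was set after the values had been seen. The median r was 0.86 for the oocyte list and 0.92 for the envelope list, against -0.01 over all genes, and without age 4 replicate 2 the list medians were 0.76 and 0.88. Among the 24 genes of both lists, the 18 past the limit had their highest older library in age 4 replicate 2 in every case, and 15 of the 24 were past it without that library. Mos, the kinase that holds eggs in meiotic arrest, had an r of 0.94, nanog 0.93, buc 0.93, the polyadenylation factor cpeb1b 0.92 and the chromatin protein npm2b 0.89. The 6 genes under the limit were taf4b, zglp1, hwa, ybx1, vrtn and mid1ip1l.

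Summed over its 5 genes, the egg envelope list reached 148.9, 33.5, 42.8 and 25.9 CPM in the libraries of age 2. It reached 90.7, 268.7, 14.1 and 12.5 CPM at age 4, 68.9, 22.0, 116.1 and 55.4 CPM at age 7 and 26.3, 13.6, 53.2 and 15.2 CPM at age 9. The 4 libraries highest for btg4 were thus also the 4 highest for the envelope genes. Both sets were chosen with earlier results of these libraries known.

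**Figure D4:**
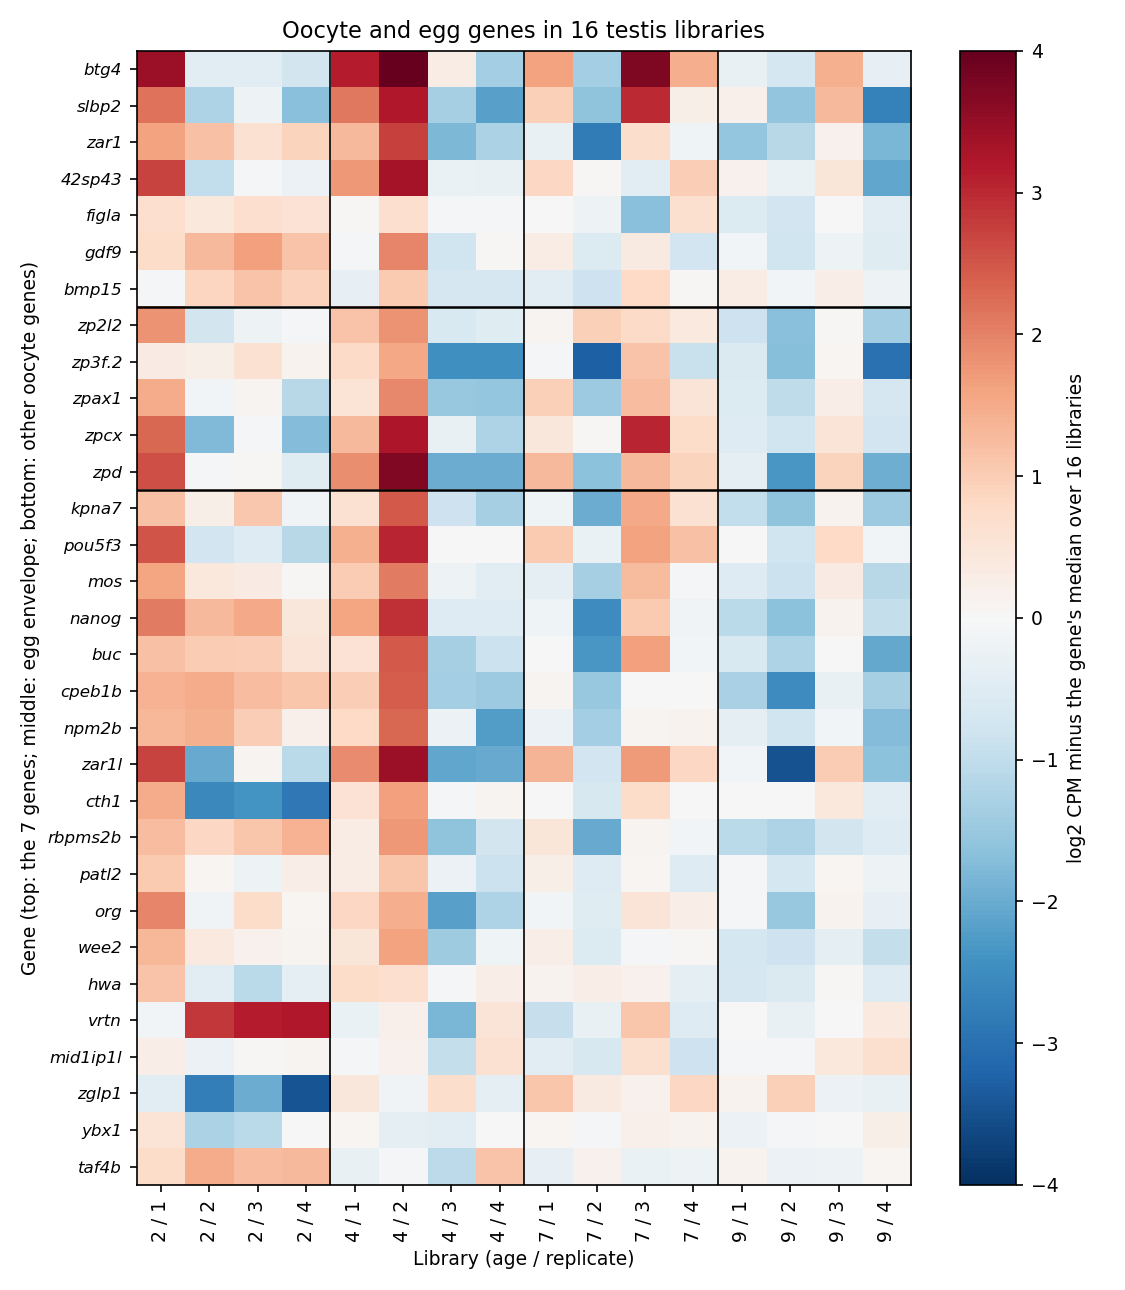
Log2 CPM minus the gene's median over 16 libraries (colour, ending at -4 and 4) for the 7 genes (top), 5 egg envelope genes (middle) and 19 other oocyte and egg genes (bottom), with libraries by age and replicate on the x axis. Age 4 replicate 2 is the darkest red column for most genes, and cth1 and btg4 lie below their medians in age 2 replicates 2 to 4 where zar1, gdf9, nanog and cpeb1b lie above theirs.

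Likeness to the other members was described in the same way. The median r of the other oocyte genes was 0.80 with slbp2, 0.85 with zar1, 0.70 with 42sp43, 0.72 with gdf9 and 0.64 with bmp15, but 0.20 with figla. An r of at least 0.7 was reached by 13 of the 19 with slbp2 and 13 with zar1, by 9 with 42sp43, by 11 with gdf9, by 4 with bmp15 and by 0 with figla. Over all genes tested that share was 1.13% for slbp2, 1.25% for zar1, 1.13% for 42sp43, 1.62% for gdf9, 1.15% for bmp15 and 0.526% for figla. Without age 4 replicate 2 the list's median was 0.53 with gdf9, 0.47 with 42sp43, 0.44 with bmp15 and -0.04 with figla. With figla it was 0.41 without the 2 libraries farthest from that gene's median (rho 0.46 over all 12). With the 2 farthest libraries of each member left out, 12 of the 19 reached the limit with slbp2 and 12 with zar1, but 1 with 42sp43, 0 with gdf9, 0 with bmp15 and 3 with figla, so the order of these counts did not hold.

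Partners of the members in their pathways did not go with btg4 as lists. The median r with btg4 was 0.02 for 14 CCR4-NOT and other deadenylation factors, -0.09 for 8 histone mRNA processing genes, 0.06 for 14 genes of 5S RNA binding and TFIIIA, and -0.14 for 12 receptors and Smads of GDF9 and BMP15. Only the first of these lists holds partners of btg4 itself. The histone list's median was -0.08 with slbp2 and the 5S list's 0.15 with 42sp43. For the receptor list it was -0.17 with gdf9 and 0.19 with bmp15. Without age 4 replicate 2 these values were -0.11, 0.29, 0.10 and 0.37. Among the 5S genes, gtf3ab, a TFIIIA gene, was the 1 member past 0.7, with an r of 0.91 with btg4 and 0.69 with 42sp43, while its paralog gtf3aa had an r of 0.01 with btg4. TFIIIA binds 5S RNA in Xenopus oocytes beside its part in transcription. Among the receptors, acvr1ba was the 1 gene past it (0.77). Without age 4 replicate 2, acvr1ba was at 0.65 and gtf3ab at 0.86 with btg4.

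Markers of other cells a testis can hold were set beside these values, and their part in the differences between libraries was not tested. Of 14 follicle and ovarian somatic genes tested, 1 (inhbaa, an activin subunit gene) had an r of at least 0.7 with btg4, and the list's median was 0.14. The listed cyp19a1 and cyp19a1a had no symbol in the count tables, and rspo1 had 0 counts. Of the 227 genes of all lists in the count tables, 32 had 0 counts, among them the CCR4-NOT genes cnot8 and cnot10. Ambiguous fragments were also left out of the counts. A count of 0 or a low count is therefore not read here as absent or low expression. Of the genes tested, fshr is also on the Sertoli cell list, and lhcgr, hsd3b1 and hsd17b1 are also on the Leydig cell list. The follicle list therefore does not separate follicle cells from Sertoli and Leydig cells. Summed, that list held 496.9 to 1377 CPM at age 2, 677.9 to 926.1 CPM at age 4, 578.5 to 1775 CPM at age 7 and 696.3 to 1385 CPM at age 9, and it was at 923.2 CPM in age 4 replicate 2. Foxl2a and foxl2b, factors of ovarian somatic cells, held 89 and 107 counts over all libraries and did not pass the filter. Foxl2a had 3 counts in age 4 replicate 2 and 2 in age 7 replicate 3, and foxl2b had 2 and 20 there. In edgeR's test 3 of the 14 follicle genes were higher and 2 lower at age 4 against age 2, 3 higher and 1 lower at age 7, and 2 higher and 1 lower at age 9, where 18.6%, 27.3% and 18.4% of all genes passed. Without age 2 replicate 1 they were 3 and 5, 3 and 4, and 3 and 3. Inhbab, another activin subunit gene, was at 103.1 CPM at age 9 against 29.2 CPM at age 2 (log2 fold change 1.82 ± 0.41, SE, edgeR adjusted p = 0.0102). The steroid enzyme gene hsd17b1 was at 11.2 CPM against 0.388 CPM (4.80 ± 1.06, edgeR adjusted p = 0.00972), and kitlgb, a kit ligand gene, was lower, at 2.56 CPM against 16.3 CPM (-2.67 ± 0.60, edgeR adjusted p = 0.0104). Kitlgb was at 2.565 CPM in age 2 replicate 1, close to its age 9 mean. The median r with btg4 was 0.01 for Sertoli cell genes, 0.36 for Leydig cell genes, 0.15 for meiotic chromosome genes, 0.12 for spermatid and sperm tail genes and 0.00 for spermatogonial genes. With the other members the spermatid list's median was 0.10 (slbp2), 0.00 (zar1), 0.35 (42sp43), 0.36 (figla), -0.26 (gdf9) and -0.19 (bmp15). The Sertoli list's was -0.11, -0.02, -0.42, -0.39, 0.01 and 0.23 in that order. Without age 4 replicate 2, the spermatid list's median was 0.53 with 42sp43, 0.39 with figla and -0.47 with gdf9. Past the limit with btg4 were 3 of 13 spermatogonial genes (nanos3, sall4 and pou5f3, which is also on the oocyte list) and 1 of 18 meiotic genes, sycp2l (0.80). Without age 4 replicate 2, nanos3 was at 0.50 and sycp2l at 0.64, under the limit, while sall4 was at 0.77 and pou5f3 at 0.92.

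**Figure D5:**
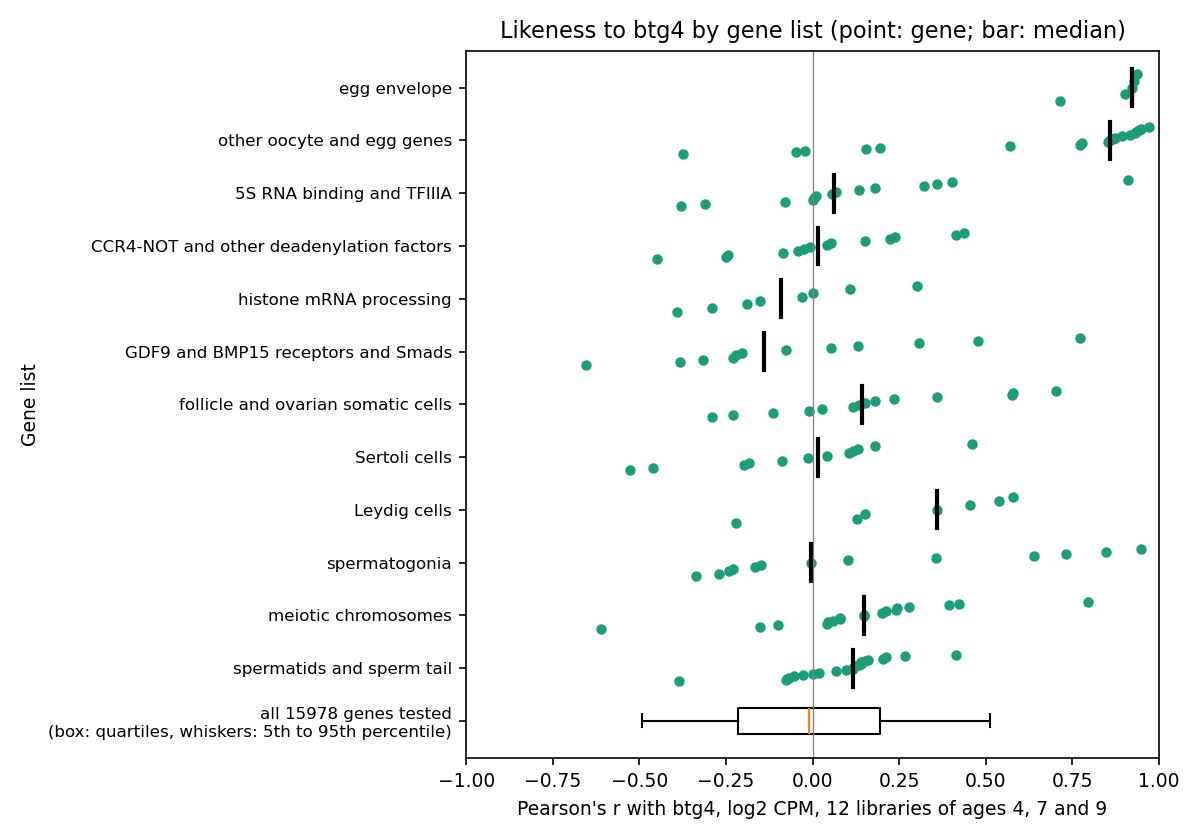
Pearson's r of log2 CPM with btg4 over 12 libraries of ages 4, 7 and 9 (x axis) for the genes of each list (y axis), 1 point per gene with the list's median as a bar, and a box for all 15978 other genes tested. The egg envelope and oocyte lists have medians of 0.92 and 0.86, and the other lists lie between -0.14 and 0.36.

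The other oocyte genes were also compared with age 2. In edgeR's test (adjusted p under 0.05), of the 19 tested 1 was higher and 2 lower at age 4, 1 higher and 2 lower at age 7, and 1 higher and 4 lower at age 9, while 18.6%, 27.3% and 18.4% of all genes passed. The list's median log2 fold change was 0.05, -0.56 and -1.30 at ages 4, 7 and 9, against -0.05, -0.08 and -0.03 over all genes. Zglp1, a germ cell zinc finger factor, rose at all 3 ages, to 19 CPM at age 9 against 4.73 CPM at age 2 (log2 fold change 2.01 ± 0.55, SE, edgeR adjusted p = 0.022), and by 3.05 ± 0.46 without age 2 replicate 1. Vrtn fell to 5.19 CPM at age 9, against 34.5 CPM at age 2 (-2.73 ± 0.65, adjusted p = 0.0127 by edgeR), and was 4.65 CPM in age 2 replicate 1. Taf4b, a TFIID subunit of germ cells, fell to 61.4 CPM against 146.5 CPM (-1.26 ± 0.34, adjusted p = 0.0211 by edgeR). Cpeb1b (-2.48 ± 0.71, adjusted p = 0.0261) and rbpms2b (-2.05 ± 0.58, adjusted p = 0.0256) were also lower at age 9 by edgeR. The 5 envelope genes gave 0 calls at each age. Without age 2 replicate 1, the calls on the oocyte list were 4 higher and 2 lower, 5 higher and 2 lower, and 3 higher and 4 lower at ages 4, 7 and 9, while 45.7%, 47.8% and 42.3% of all genes passed. Of the envelope genes, zpcx then passed as higher at ages 4 (2.90 ± 1.08) and 7 (2.81 ± 1.08).

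For the partner lists, the counts are read beside the same shares of all genes: 18.6%, 27.3% and 18.4% at ages 4, 7 and 9 with all libraries, and 45.7%, 47.8% and 42.3% without age 2 replicate 1. Of 14 deadenylation factors, 2, 4 and 2 passed at ages 4, 7 and 9 against age 2, and 7, 7 and 7 without that replicate. Cnot2, a CCR4-NOT subunit, was higher at age 9, at 5.66 CPM against 1.61 CPM at age 2 (log2 fold change 1.80 ± 0.46, SE, edgeR adjusted p = 0.0167). Btg2, a relative of btg4, was lower at age 9 (-1.82 ± 0.52, edgeR adjusted p = 0.0259). It averaged 75.06 CPM at age 9 and 265.1 CPM at age 2, and was at 75.5 CPM in age 2 replicate 1.

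Of the 12 receptors and Smads of GDF9 and BMP15, 0 were higher and 4, 3 and 1 lower at ages 4, 7 and 9. Without age 2 replicate 1, 1 was higher at each age, acvr1bb, and 7, 7 and 5 were lower. Acvr1ba was lower at all 3 ages with and without it, at 20.7 CPM at age 9 against 92.2 CPM at age 2 (-2.16 ± 0.49, edgeR adjusted p = 0.0105). Its level in age 2 replicate 1 was 30.5 CPM. Smad1, a transducer of BMP signals, was lower at age 4, at 83.5 CPM against 203.8 CPM (-1.29 ± 0.25, edgeR adjusted p = 0.0135).

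Of the 14 genes of 5S RNA binding, 3, 3 and 2 passed, and 7, 6 and 8 without age 2 replicate 1. Rpl5a, a ribosomal protein that binds 5S RNA, was lower at all 3 ages (-1.03 ± 0.21 at age 9, edgeR adjusted p = 0.00731). Eef1a1a was higher at all 3, by 2.88 ± 0.76 at age 9 (edgeR adjusted p = 0.019) and by 4.74 ± 0.60 without that replicate. Of 8 histone mRNA processing genes, 0, 0 and 1 passed, the last being cpsf2 (-0.60 ± 0.17 at age 9, edgeR adjusted p = 0.0246). Without that replicate 3 were higher at age 4 (slbp, lsm10 and ncbp2), 2 at age 7 and 2 at age 9 (lsm10 and ncbp2 at both), with cpsf2 again lower at age 9.

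Each of the 7 genes has 1 transcript in the count tables, and in RefSeq's gene table for assembly Billie_1.0 none overlaps another gene or lies next to another member. Of their 14 nearest neighbours, 11 had enough counts to be tested, and their r with the member beside them lay between -0.54 (fryl beside zar1) and 0.46 (leap2 beside bmp15) over the 12 older libraries.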

How the data were processed

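The deposited tables hold the authors' unnormalized counts of fragments for 50072 transcripts, followed by 5 summary lines. Per the labels' protocols, a Zymo kit gave the RNA and NEBNext Ultra II chemistry the libraries. The submitters' processing notes name STAR 2.7.5, HTSeq 0.11.1, Trimmomatic 0.39, edgeR 4.4.2, FastQC 0.11.9 and MultiQC 1.10.1. Their roles, settings and strand use are not given in the sources read. The summary lines held 65.2% to 76.2% of fragments (ambiguous ones 22.8% to 29.4%) and were left out.

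Counts were summed per gene symbol and filtered with filterByExpr (minimum count 10, total 15), leaving 15979 genes. TMM factors were 0.773 to 1.13. Ages were compared in edgeR 4.0.16 (quasi-likelihood, robust, 12 residual degrees of freedom, two-sided, Benjamini-Hochberg at 0.05) under R 4.3.3. A single model held all 16 libraries, so p-values measure the pooled spread between fish. The common biological coefficient of variation was 0.417. SE is the log2 fold change over the square root of F. Log2 CPM used a prior count of 2. Bounds of 3 counts cover counting error only. The procedure was tested on simulated data. Figures used python 3.11.15, pandas 2.3.3, numpy 2.4.6 and matplotlib 3.10.9.

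The members and lists were chosen with earlier results of these data known. Named genes are the members, up to 3 genes with the smallest p per list among those past the threshold in any comparison, and the 5 genes most like each member, of which 1 is not reported here. Other genes named from the lists (those past or under the r limit, cpeb1b, rbpms2b, foxl2a, foxl2b, gtf3aa, mos, npm2b, zpcx, acvr1bb, slbp, lsm10, ncbp2, gfra1b, piwil1, rspo1, fshr, lhcgr and hsd3b1) were chosen after their values were seen. Alternatives were DESeq2 1.42.0, its size factors, no filter, the 2 ages alone, the replicate number as a block and the omission of each library. No sequences were used here. Gene names were checked against a RefSeq table in which 48916 transcripts matched.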

Additional observations from a re-analysis of the deposited data

Results flagged for a closer look

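The level of each of the 7 genes was checked for a library far from the others of its age, in 28 groups of 4. Chance alone marks about 1 in 20 such groups where values are normally distributed, which was not tested for these CPM, and 7 were marked here. The genes were chosen for levels that move together between libraries, so marks of different genes are not independent and nothing is read from their number. In age 2 replicate 1, btg4 was at 8.335 CPM against 0.167 to 0.291 CPM in the other 3 libraries, slbp2 at 8.816 CPM against 0.334 to 1.46 CPM, and 42sp43 at 72.13 CPM against 5.28 to 10.3 CPM. In age 4 replicate 2, figla was at 5.995 CPM against 3.48 to 3.77 CPM, gdf9 at 15.56 CPM against 2.03 to 3.90 CPM, and bmp15 at 8.673 CPM against 2.37 to 3.15 CPM. In age 9 replicate 3, btg4 was at 1.84 CPM against 0.183 to 0.342 CPM. Of the 7 marks, 6 thus lie in 2 of the 16 libraries.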

How the results depend on the processing

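The counts of genes passing at ages 4, 7 and 9 against age 2 (2979, 4368 and 2934) depended on single libraries. Leaving out each in turn, they lay between 1 (without age 4 replicate 3) and 7581 (without age 2 replicate 1), between 1945 and 7941, and between 1157 and 7028, the highest each time without age 2 replicate 1. The other omissions that moved them by over 1.5 times, all downward, were those of age 2 replicates 2, 3 and 4, of age 4 replicates 1 and 2 (622 and 1694), of age 7 replicates 1 and 4 (2425 and 2530) and of age 9 replicates 1, 2 and 3 (1701, 1477 and 1470). With the 2 ages alone they were 0, 795 and 987. Without age 2 replicate 1, the calls on the lists were 85, 80 and 79, against 32, 37 and 31. The cause was not tested.

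The median r over pairs (0.69) was 0.58 as Spearman's rho and 0.44 without the 2 libraries farthest from the median of btg4, an alternative added after seeing the data. It lay between 0.49 (without age 4 replicate 2) and 0.72 when a library was left out. Of 420 alternative values of the members' fold changes, 401 moved by less than the replicate spread, and the other 19 were omissions of 1 library. The sign differed in 9, all without a call in either. The transcript with the most counts equals the gene, as each member has 1.

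Replicate numbers did not pair libraries: same-numbered ones had r of -0.22 to 0.41 between their deviations, over 0.1 in 9 of 24. With the replicate number as a block, 3199, 4439 and 2790 genes passed, with 37, 45 and 33 list calls, and 0 members passed at each age. Gdf9 at age 9 then had a log2 fold change of -1.68 and lay just outside the threshold, which is a description as for all members. DESeq2 passed 0, 1 and 2 members at ages 4, 7 and 9. Its share of all genes passing is not given here, so nothing is read from these counts. Members with 0 to 3 counts in a library are not told apart from absence at this depth.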
